A study of Homo sapiens with 4 samples.

Results

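Kinesins are motor proteins that use ATP to walk along microtubules or to take their ends apart. The genes described here are the kinesin motor genes of HCC1143 cells, taken as every gene symbol in the 4 count tables that reads KIF or KIFC followed by a digit. The rule found 42 of the 18131 genes in the tables, and 39 of the 42 were among the 15636 genes listed in every table. By their known main role, 13 of the 42 were mitotic kinesins, 17 were transport kinesins and 10 were ciliary or other kinesins. The symbols of 2 further genes match the rule although they encode no motor. KIF1BP is a protein that binds kinesins, and KIF9-AS1 is a transcript antisense to KIF9.

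HCC1143 is an established cell line from a human triple-negative breast carcinoma, a tumour without oestrogen receptor, progesterone receptor or HER2 overexpression. Single cells were captured on the 10x Chromium platform in 4 groups of 1 library each. The groups were cells kept in 1 nM paclitaxel for 72 h, cells kept in the solvent DMSO for 72 h, cells kept in 1 nM paclitaxel for 24 h, and cells kept in DMSO for 24 h. All cells had been left to attach to 6-well plates for 24 h before the agent was added, and the labels name no other treatment or genetic change. Each group was 1 library, so no difference below has a replicate check, no p-value was computed, and the intervals given are 95% intervals that cover counting error only.

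Mitotic kinesins build and move the spindle, align chromosomes and complete cytokinesis. Their transcripts are known to accumulate towards mitosis under the DREAM and B-MYB-FOXM1 complexes, which act through CHR promoter elements. CCAAT boxes, a separate promoter element, are counted below beside the CHR. Transport kinesins carry vesicles, organelles and RNA along microtubules at all times of the cell cycle. Paclitaxel, a taxane, stabilises microtubules, the track of all these motors, and is known to delay cells in mitosis or to let them leave it with unequally shared chromosomes.

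The promoters of 5 members are shown first, since they hold the cell cycle motifs counted below. Each line gives the 150 bases before the transcription start of the RefSeq annotation on GRCh38.p14, read 5′ to 3′ on the strand of the gene. Capitals mark 3 motifs found on either strand: the CHR (cell cycle genes homology region) letters TTTGAA, the CHR variant letters TTCGAA, and the CCAAT box, which reads ATTGG on the other strand. KIF23 lies at chr15:69414199-69414348 on the plus strand, KIF4A at chrX:70289954-70290103 on the plus strand and KIF20A at chr5:138178962-138179111 on the plus strand. KIF22 lies at chr16:29790601-29790750 on the plus strand and KIF5B at chr10:32056426-32056575 on the minus strand. KIF23 and KIF4A are mitotic kinesins with both elements, KIF20A and KIF22 are mitotic kinesins without TTTGAA, and KIF5B is a transport kinesin.
KIF23: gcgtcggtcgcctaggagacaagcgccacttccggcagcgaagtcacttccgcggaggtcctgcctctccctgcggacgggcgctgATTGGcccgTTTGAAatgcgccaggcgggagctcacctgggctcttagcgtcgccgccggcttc
KIF4A: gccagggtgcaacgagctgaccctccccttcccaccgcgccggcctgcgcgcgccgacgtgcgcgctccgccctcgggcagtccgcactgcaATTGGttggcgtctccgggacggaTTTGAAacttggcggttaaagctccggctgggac
KIF20A: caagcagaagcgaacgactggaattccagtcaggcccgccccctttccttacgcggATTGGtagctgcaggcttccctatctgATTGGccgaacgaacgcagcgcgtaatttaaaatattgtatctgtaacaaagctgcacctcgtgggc
KIF22: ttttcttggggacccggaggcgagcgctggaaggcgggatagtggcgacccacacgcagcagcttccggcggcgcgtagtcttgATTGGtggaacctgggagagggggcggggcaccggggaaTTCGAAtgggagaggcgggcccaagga
KIF5B: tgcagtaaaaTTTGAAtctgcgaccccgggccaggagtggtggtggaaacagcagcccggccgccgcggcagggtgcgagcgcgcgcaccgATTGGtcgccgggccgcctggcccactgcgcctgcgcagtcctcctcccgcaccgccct

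The RefSeq table held a window of 250 bases before to 50 bases after the start for 34 of the 42 members. TTTGAA was in 10 of 13 mitotic, 1 of 12 transport and 0 of 8 ciliary or other windows, against 15.4% of the 27305 windows of all genes. In 9 of the 10 mitotic windows the match began within 50 bases of the start, where 4.67% of all windows had one. In KIF23 the leftmost base of TTTGAA stood at position -55 and in KIF4A at -34, with a CCAAT box at -64 and -58 of the same 2 genes. The exception among transport kinesins was KIF5B, with its match farther upstream at -140. CCAAT was in 11 of 13 mitotic, 3 of 12 transport and 3 of 8 other windows, against 35.7% of all. Both motifs stood together in 9 of 13 mitotic windows and 1 of 12 transport windows, against 6.08% of all. KIF22 held the variant TTCGAA at -27, which 1.45% of all windows held, and KIF24, a centriole kinesin grouped with the ciliary members, held it at position 2. KIF20A had CCAAT boxes at -94 and -67 and no CHR letters in this window, and GENCODE release 29 starts its gene farther upstream, at 138178719. KIF2C had none of the 3. A match is a description of letters, and its absence says only that these letters are not in the window.

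The 3180 cells kept had median depths of 57545 UMIs (unique molecular identifiers) in paclitaxel and 54864 in DMSO at 72 h, and of 59670 in paclitaxel and 59378 in DMSO at 24 h. Summed UMIs per library lay between 34850724 and 72024235, so that 3 UMIs, the limit a count of 0 allows, stood for 0.0417 to 0.0861 CPM (summed UMIs per 1000000 UMIs of the library). Only 7 barcodes occurred in more than 1 library. All 8 epithelial markers were listed in every library, with summed levels of 5234 CPM in paclitaxel and 2306 CPM in DMSO at 72 h, and 3335 CPM in paclitaxel and 2752 CPM in DMSO at 24 h. ESR1 lay between 0.306 and 0.66 CPM and PGR was in no table. ERBB2, the gene of HER2, lay between 20.4 and 23.5 CPM. Of 3 endothelial markers 2 were in a table, with sums of at most 1.66 CPM, and COL1A1, at 10 to 13.9 CPM, was the only 1 of 5 fibroblast markers. Of 6 leukocyte markers 3 were in a table, with sums of 24.1 CPM in paclitaxel and 8.65 CPM in DMSO at 72 h, and 8.63 CPM in paclitaxel and 7.41 CPM in DMSO at 24 h. Most of this was CD68, a lysosomal protein also made outside leukocytes, while the defining marker PTPRC was listed only in paclitaxel at 72 h, at 0.287 CPM; their part in the kinesin values was not tested.

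Scaling to the library total moved all genes together, and this touches every kinesin ratio. Genes were called measured where the mean of the 2 libraries compared was 10 CPM or more. Over these genes the median log2 ratio of paclitaxel over DMSO was 0.28 at 72 h (8306 genes) and -0.14 at 24 h (8096 genes). It was -0.29 for DMSO at 72 h over DMSO at 24 h and 0.13 for paclitaxel at 72 h over paclitaxel at 24 h. The median share of ribosomal protein genes in a cell moved as well, with 25.9% in paclitaxel and 38.4% in DMSO at 72 h, and 31.1% in paclitaxel and 24.6% in DMSO at 24 h. Log2 ratios of kinesins are therefore given minus the median of all genes, as relative log2 ratios, and ratios without that step are called unadjusted. A gene was counted as higher or lower where its unadjusted ratio was at least 1.5-fold, its mean at least 10 CPM, and its interval left out a ratio of 1. UMIs were counted per gene and not per length, so levels are compared between libraries and not between genes. The 4 comparisons share libraries and are not independent of each other.

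Of the 42 members, 27 reached 10 CPM in at least 1 library: 12 mitotic, 12 transport, 2 other motors (KIF2A and KIF9) and KIF1BP. The other 15 stayed at or below 9.61 CPM in each library that listed them. All 12 mitotic members listed in every table had their highest CPM in DMSO at 24 h, and 8 of the 12 had their lowest in paclitaxel at 72 h. These are ranks of unadjusted CPM, and how many of all genes rank so was not counted. Over DMSO at 24 h the median log2 ratio of all measured genes was -0.14 for paclitaxel at 24 h and -0.29 for DMSO at 72 h. For paclitaxel at 72 h it was 0.02. Among the 16 transport members in every table, paclitaxel at 72 h was the highest library for 7 genes, DMSO at 72 h for 3 and DMSO at 24 h for 6.

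**Figure D1:**
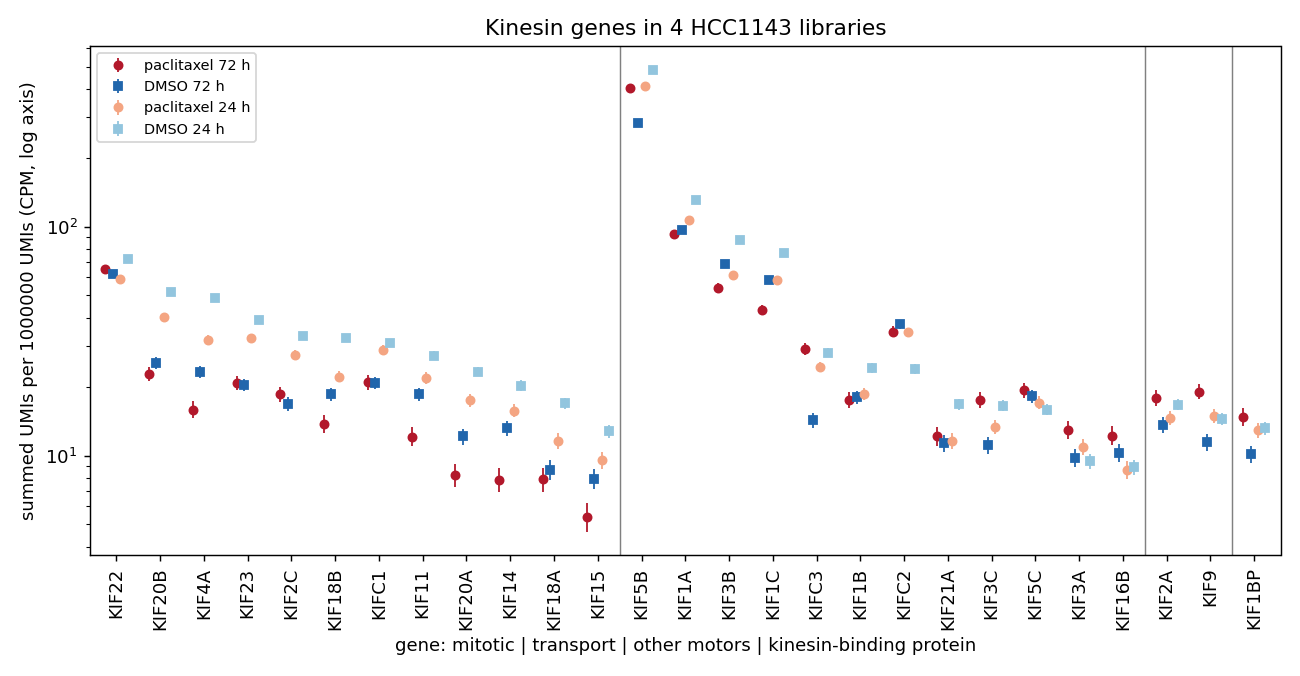
CPM (summed UMIs per 1000000, log axis) of the 27 kinesin genes that reached 10 CPM in at least 1 library, one point for each of the 4 libraries with its exact Poisson 95% interval. The 12 mitotic genes at the left have their highest point in DMSO at 24 h, and transport genes such as KIFC3 and KIF5B have their lowest point in DMSO at 72 h.

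The mitotic members that set up the spindle had their highest CPM in DMSO at 24 h. KIF11 (Eg5) at chr10:92593286-92655395 (GRCh38, whole gene in GENCODE release 29, as for the genes below), which slides the spindle poles apart, had 12.1 CPM in paclitaxel and 18.5 CPM in DMSO at 72 h, and 21.8 CPM in paclitaxel and 27.3 CPM in DMSO at 24 h. KIF15, which can keep the spindle bipolar beside KIF11, had 5.39 CPM in paclitaxel and 7.90 CPM in DMSO at 72 h, and 9.53 CPM in paclitaxel and 12.8 CPM in DMSO at 24 h. Both genes kept the same order of libraries, with paclitaxel at 72 h lowest. KIFC1 (HSET), a minus end motor that clusters extra centrosomes in cancer cells, had 20.9 CPM in paclitaxel and 20.7 CPM in DMSO at 72 h, and 28.9 CPM in paclitaxel and 31.1 CPM in DMSO at 24 h. KIFC1 thus separated the 2 times, and its unadjusted ratio between treatments was within counting error at 72 h.

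Motors that act on chromosomes and microtubule ends differed in which library was lowest. KIF18A, which dampens chromosome movements at the metaphase plate, had 7.86 CPM in paclitaxel and 8.65 CPM in DMSO at 72 h, and 11.6 CPM in paclitaxel and 16.9 CPM in DMSO at 24 h. KIF18B, which limits astral microtubules, had 13.8 CPM in paclitaxel and 18.6 CPM in DMSO at 72 h, and 22.1 CPM in paclitaxel and 32.6 CPM in DMSO at 24 h. KIF4A, a chromokinesin that also works at the central spindle, had 15.9 CPM in paclitaxel and 23.2 CPM in DMSO at 72 h, and 32.1 CPM in paclitaxel and 48.7 CPM in DMSO at 24 h. These 3 were lowest in paclitaxel at 72 h. KIF2C (MCAK), which depolymerises microtubules at centromeres, had 18.5 CPM in paclitaxel and 16.8 CPM in DMSO at 72 h, and 27.5 CPM in paclitaxel and 33.3 CPM in DMSO at 24 h. KIF22 (Kid), a chromokinesin that pushes chromosome arms, had 65.0 CPM in paclitaxel and 61.8 CPM in DMSO at 72 h, and 59.1 CPM in paclitaxel and 72.2 CPM in DMSO at 24 h. KIF22 was the mitotic member with the narrowest spread over the 4 libraries. KIF2C and KIF22 had unadjusted ratios of paclitaxel over DMSO just above 0 at 72 h, and KIF18A had one below 0. The intervals of these 3 ratios included 0. In relative log2 ratios at 72 h KIF2C stood at -0.14, KIF22 at -0.21 and KIF18A, under 10 CPM in both libraries, at -0.42.

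Motors of cytokinesis also differed in which library was lowest, though for KIF23 the 2 libraries at 72 h were within counting error. KIF14 at chr1:200551497-200620734, which works with citron kinase at the midbody, had 7.83 CPM in paclitaxel and 13.2 CPM in DMSO at 72 h, and 15.7 CPM in paclitaxel and 20.2 CPM in DMSO at 24 h. KIF20A (MKLP2), which brings Aurora B to the central spindle, had 8.21 CPM in paclitaxel and 12.1 CPM in DMSO at 72 h, and 17.4 CPM in paclitaxel and 23.2 CPM in DMSO at 24 h. KIF20B (MPP1), which acts in late cytokinesis, had 22.7 CPM in paclitaxel and 25.4 CPM in DMSO at 72 h, and 40.2 CPM in paclitaxel and 52.0 CPM in DMSO at 24 h. All 3 were lowest in paclitaxel at 72 h. KIF23 (MKLP1), the motor of the centralspindlin complex, had 20.8 CPM in paclitaxel and 20.4 CPM in DMSO at 72 h, and 32.5 CPM in paclitaxel and 39.1 CPM in DMSO at 24 h. KIF4B, a retrogene nearly identical to KIF4A, was listed in 3 tables at 0.541 to 0.549 CPM and was not in the table of paclitaxel at 72 h; reads of the 2 genes may be split between them.

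At 24 h the kinesins moved little between treatments. Of 26 measured members 0 were higher and 1 was lower in paclitaxel, against 4% of all measured genes higher and 3.62% lower, so these counts are near the background. The gene counted as lower was KIF4A, whose relative log2 ratio was -0.46 (-0.55 to -0.38), under 1.5-fold once the median of all genes is taken off. Under the relative rule the only member past 1.5-fold was KIFC2 instead, higher at 0.67 (0.57 to 0.76), so that 1 was higher, against 6.3% of genes, and 0 lower, against 1.26%. All 12 measured mitotic members had unadjusted ratios below 0, and 11 of the 12 had relative ratios below 0, with a median relative log2 ratio of -0.23 against 0 by construction over all genes. KIF18B at -0.42 and KIF18A at -0.41 came next after KIF4A, and KIFC1 at 0.03 was the exception. Without cells above 100000 UMIs 7 of 25 members, all mitotic, were lower in paclitaxel, against 7.06% of all genes, and with the mean of per-cell CPM 4 were, against 5.91%.

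At 72 h the treatments lay farther apart. Of 25 measured members 3 were higher in paclitaxel (KIF3C, KIF9 and KIFC3), against 25.2% of all measured genes, and 2 were lower (KIF11 and KIF14), against 2.13%. Relative to the median of all genes, 1 member was higher, against 11.1% of genes, and 7 were lower, against 7.93%. All 10 measured mitotic members had relative ratios below 0, with a median of -0.58, although 4 of the 10 had unadjusted ratios above 0. This depends on the grouping: KIF2A, which also acts at spindle poles but was grouped with the other motors, stood at 0.11 (-0.05 to 0.27). The lowest relative log2 ratios were those of KIF14 at -1.03 (-1.24 to -0.82), KIF11 at -0.89 (-1.06 to -0.73), KIF20A at -0.84 (-1.05 to -0.64) and KIF4A at -0.83 (-0.98 to -0.68). KIF18B at -0.71 also passed 1.5-fold below the median. The 4 genes with unadjusted ratios above 0 were KIF22, KIF23, KIF2C and KIFC1, with relative ratios of -0.21, -0.25, -0.14 and -0.27, so their direction depends on the scaling. The interval of KIF2C, -0.29 to 0.01, included 0.

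**Figure D2:**
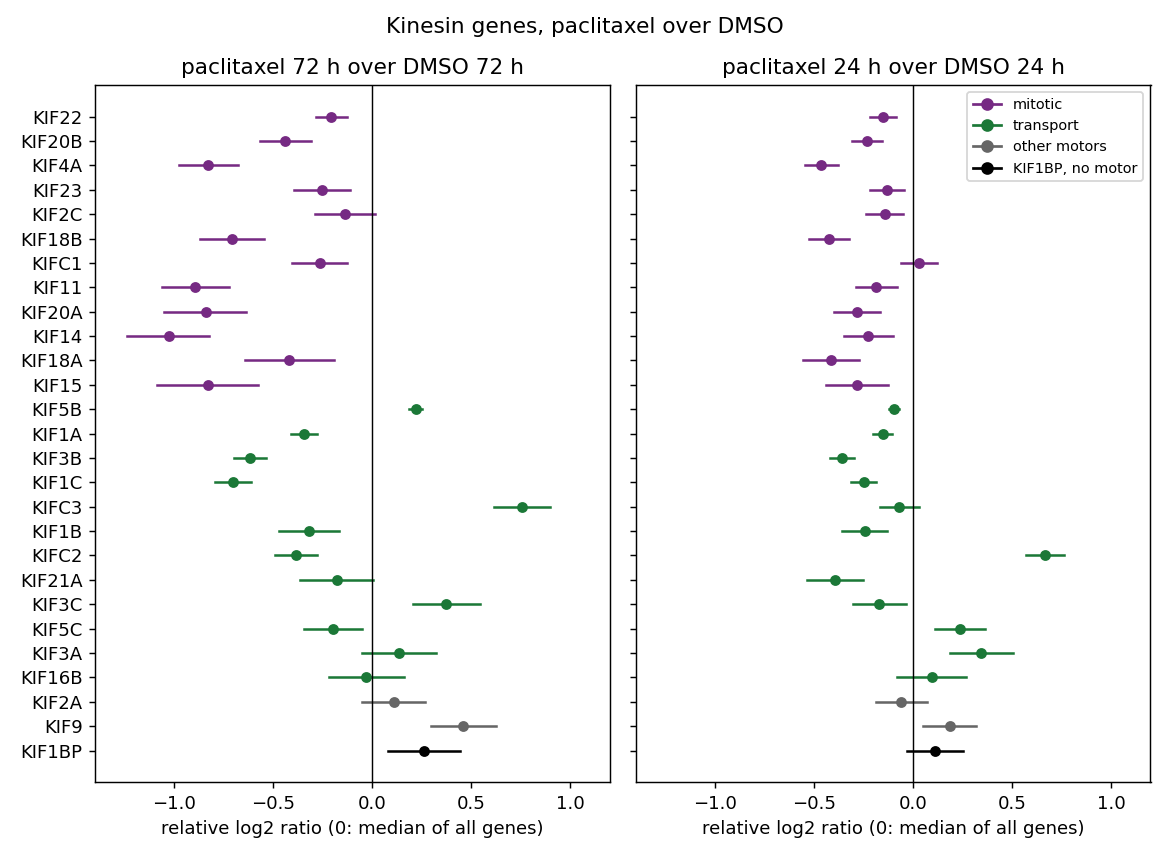
Relative log2 ratio of paclitaxel over DMSO, with the median of all measured genes at 0, for the 27 kinesin genes with 10 CPM or more in a library, at 72 h at the left and 24 h at the right. Bars are 95% intervals for counting error; at 72 h the mitotic genes lie between -1.03 and -0.14 and KIFC3 lies at 0.76.

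Most mitotic members were lower at 72 h than at 24 h within each treatment. In DMSO, 12 of 25 measured members were lower at 72 h, against 25.1% of genes, and 1 was higher, against 6.43%. The 12 comprised 10 of the 12 measured mitotic members besides KIF5B and KIFC3, and KIFC2 was the higher one. Relative to the median of all genes 7 were lower, against 9.89%, and 1 was higher, against 13%. KIF4A at -0.78, KIF20B at -0.75 and KIF2C at -0.71 had the lowest relative log2 ratios and KIF22 at 0.06 was the one mitotic member above 0. In paclitaxel, 7 of 25 measured members were lower at 72 h, against 2.65%, and 0 were higher, against 12.2%. Relative to the median 9 were lower, against 4.93%, and 0 higher, against 7.95%. The 7 were all mitotic, and their lowest relative log2 ratios were -1.21 (-1.41 to -1.02) for KIF20A, -1.15 (-1.29 to -1.01) for KIF4A and -1.14 (-1.34 to -0.94) for KIF14. KIF22, at 0.01 (-0.07 to 0.08), did not follow them. In a comparison of drug and time at once, added after the data were seen, paclitaxel at 72 h over DMSO at 24 h had 0 of 26 measured members higher, against 16.2% of genes, and 11 lower, against 11.8%; relative to the median 0 were higher, against 15.5%, and 12 lower, against 12.3%.

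Kinesin-1, the main carrier of vesicles and mitochondria, is a heavy chain dimer with light chains, and KIF5B is the heavy chain of most cells. KIF5B had 402 CPM in paclitaxel and 285 CPM in DMSO at 72 h, and 410.3 CPM in paclitaxel and 482.5 CPM in DMSO at 24 h. DMSO at 72 h was the low library, while the 2 paclitaxel libraries were near each other. The relative log2 ratio of paclitaxel over DMSO was 0.22 (0.18 to 0.25) at 72 h and -0.10 (-0.12 to -0.07) at 24 h. KIF5C, a heavy chain known best from neurons, had 19.3 CPM in paclitaxel and 18.2 CPM in DMSO at 72 h, and 17.0 CPM in paclitaxel and 15.9 CPM in DMSO at 24 h. KIF5A, the other neuronal form, stayed between 2.28 and 3.47 CPM.

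Kinesin-2 motors move cargo and the intraflagellar transport trains of cilia, and their subunits KIF3A, KIF3B and KIF3C did not move together. KIF3B had 54.2 CPM in paclitaxel and 68.5 CPM in DMSO at 72 h, and 61.7 CPM in paclitaxel and 87.1 CPM in DMSO at 24 h. Its partner KIF3A had 12.97 CPM in paclitaxel and 9.73 CPM in DMSO at 72 h, and 10.9 CPM in paclitaxel and 9.46 CPM in DMSO at 24 h. KIF3C at chr2:25926596-25982749, the alternative partner, had 17.5 CPM in paclitaxel and 11.1 CPM in DMSO at 72 h, and 13.4 CPM in paclitaxel and 16.5 CPM in DMSO at 24 h. In relative log2 ratios at 72 h, KIF3B stood at -0.62 (-0.70 to -0.54), past 1.5-fold below the median, KIF3A at 0.13 (-0.05 to 0.32) and KIF3C at 0.37 (0.20 to 0.54). At 24 h KIF3B stood at -0.36, KIF3A at 0.35 and KIF3C at -0.17. KIF17, a kinesin-2 of neurons and sensory cilia, was in both paclitaxel tables, at 0.574 CPM at 72 h and 0.288 CPM at 24 h, and in neither DMSO table; a gene was listed only where at least 1% of cells held a UMI, so this is no measured 0.

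The kinesin-3 motors KIF1A, KIF1B and KIF1C had relative log2 ratios of paclitaxel over DMSO below 0 at both times. For KIF1B they were -0.32 (-0.47 to -0.17) at 72 h and -0.24 (-0.36 to -0.13) at 24 h. KIF1A had 92.4 CPM in paclitaxel and 96.7 CPM in DMSO at 72 h, and 107 CPM in paclitaxel and 130.5 CPM in DMSO at 24 h. KIF1C had 43.4 CPM in paclitaxel and 58.2 CPM in DMSO at 72 h, and 58.4 CPM in paclitaxel and 76.3 CPM in DMSO at 24 h. The relative log2 ratio of KIF1C at 72 h, -0.70 (-0.79 to -0.61), was close to that of KIF18B among the mitotic members. KIF1B had 17.5 CPM in paclitaxel and 17.9 CPM in DMSO at 72 h, and 18.5 CPM in paclitaxel and 24.1 CPM in DMSO at 24 h. KIF16B, which binds endosomes, had 12.2 CPM in paclitaxel and 10.3 CPM in DMSO at 72 h, and 8.61 CPM in paclitaxel and 8.87 CPM in DMSO at 24 h. KIF13A and KIF13B, the other kinesin-3 members, stayed between 7.77 and 9.61 CPM and between 3.44 and 5.38 CPM. KIF21A, a kinesin-4 that slows microtubule growth at the cell cortex, had 12.1 CPM in paclitaxel and 11.3 CPM in DMSO at 72 h, and 11.6 CPM in paclitaxel and 16.7 CPM in DMSO at 24 h.

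The 2 kinesin-14 members outside the spindle went opposite ways between the DMSO libraries. KIFC3 at chr16:57758217-57863053, a minus end motor described at cell junctions and the Golgi, had 29.2 CPM in paclitaxel and 14.2 CPM in DMSO at 72 h, and 24.4 CPM in paclitaxel and 28.1 CPM in DMSO at 24 h. The library of DMSO at 72 h was the low one, and its relative log2 ratios were 0.76 (0.62 to 0.90) for paclitaxel over DMSO at 72 h and -0.70 (-0.82 to -0.57) for DMSO at 72 h over DMSO at 24 h. It was the only member higher in paclitaxel at 72 h under both rules. KIFC2 had 34.8 CPM in paclitaxel and 37.4 CPM in DMSO at 72 h, and 34.5 CPM in paclitaxel and 23.9 CPM in DMSO at 24 h. Here DMSO at 24 h was the low library, and the relative log2 ratio of DMSO at 72 h over DMSO at 24 h was 0.93 (0.83 to 1.02). KIFC2 shares exon sequence with FOXH1 on the opposite strand, and the sources used here do not state whether strand was used in counting.

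KIF2A, a depolymerase of spindle poles and neurons, had 17.8 CPM in paclitaxel and 13.6 CPM in DMSO at 72 h, and 14.5 CPM in paclitaxel and 16.7 CPM in DMSO at 24 h. It was grouped with the other motors, so the counts of mitotic members leave it out. Unlike the mitotic members listed in every table, KIF2A had its highest CPM in paclitaxel at 72 h. Its interval there overlapped that of DMSO at 24 h. KIF9 at chr3:47228026-47283451, a motor of motile cilia, had 19.0 CPM in paclitaxel and 11.4 CPM in DMSO at 72 h, and 14.9 CPM in paclitaxel and 14.4 CPM in DMSO at 24 h, with a relative log2 ratio of 0.46 (0.29 to 0.62) at 72 h. KIF9 overlaps KIF9-AS1 on the opposite strand, which had 2.01 CPM in paclitaxel and 1.10 CPM in DMSO at 72 h, and 1.05 CPM in paclitaxel and 1.07 CPM in DMSO at 24 h, so reads of the 2 cannot be told apart with certainty. KIF1BP had 14.7 CPM in paclitaxel and 10.1 CPM in DMSO at 72 h, and 12.9 CPM in paclitaxel and 13.1 CPM in DMSO at 24 h. All 3 genes had their lowest CPM in DMSO at 72 h.

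KIF26B, a kinesin without motor activity at chr1:245154985-245709431, was chosen for description after its values were seen, since its ratio changed sign between the times. It had 3.50 CPM in paclitaxel and 7.68 CPM in DMSO at 72 h, and 5.55 CPM in paclitaxel and 2.36 CPM in DMSO at 24 h. Its relative log2 ratio of paclitaxel over DMSO was -1.41 (-1.72 to -1.12) at 72 h and 1.37 (1.10 to 1.65) at 24 h. The share of cells with a KIF26B UMI followed, at 16.3% in paclitaxel and 31.0% in DMSO at 72 h, and 25.4% in paclitaxel and 12.5% in DMSO at 24 h. After thinning to 20000 UMIs it was 6.44% in paclitaxel and 13.8% in DMSO at 72 h, and 10.1% in paclitaxel and 5.09% in DMSO at 24 h. KIF21B lay between 0.444 and 1.49 CPM with a relative log2 ratio of 1.33 (0.61 to 2.10) at 72 h and 1.19 (0.52 to 1.87) at 24 h. The ciliary and other members KIF6, KIF7, KIF12, KIF24, KIF25, KIF26A and KIF27 lay between 0.163 and 8.14 CPM in the libraries that listed them.

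Summed over the 12 mitotic members in every table, the level was 219 CPM in paclitaxel and 247 CPM in DMSO at 72 h, and 318 CPM in paclitaxel and 409 CPM in DMSO at 24 h. The 16 transport members summed to 766 CPM in paclitaxel and 657 CPM in DMSO at 72 h, and 791 CPM in paclitaxel and 935 CPM in DMSO at 24 h. KIF5B alone made up 43.4% to 52.5% of the transport UMIs and KIF22 made up 17.6% to 29.7% of the mitotic UMIs. The number of mitotic UMIs per transport UMI, which does not depend on scaling, was 0.286 in paclitaxel and 0.376 in DMSO at 72 h, and 0.402 in paclitaxel and 0.438 in DMSO at 24 h. The log2 difference of this ratio, paclitaxel over DMSO, was -0.40 (-0.44 to -0.35) at 72 h and -0.12 (-0.15 to -0.09) at 24 h. Without KIF5B and KIF22 the difference at 72 h was -0.24. The transport sum itself had an unadjusted log2 ratio of 0.22 at 72 h and a relative one of -0.06 (-0.08 to -0.03), so its direction depends on the scaling. The relative log2 ratio of the mitotic sum was -0.46 (-0.50 to -0.41) at 72 h and -0.22 (-0.25 to -0.20) at 24 h.

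Cell cycle calls were made from 42 S phase and 50 G2/M genes, none of them a member, in cells thinned to 20000 UMIs. The G2/M genes included CENPE, a kinesin that does not carry a KIF symbol. The members were then summed over the cells of each call. The share of cells called G2/M was 16.4% (13.2 to 20.04) in paclitaxel and 23.5% (20.5 to 26.7) in DMSO at 72 h, and 30.5% (27.2 to 34.0) in paclitaxel and 43.1% (40.1 to 46.1) in DMSO at 24 h. The share called G1, which means low on both lists, was 67.6% in paclitaxel and 50% in DMSO at 72 h, and 35.5% in paclitaxel and 13.4% in DMSO at 24 h. The calls are ranges of a score: 40.5% of cells in paclitaxel and 23.2% in DMSO at 72 h, and 24.0% in paclitaxel and 20.7% in DMSO at 24 h, lay within 0.05 of a limit between calls. Cells called G2/M held 49.6% of the mitotic kinesin UMIs in paclitaxel and 58.4% in DMSO at 72 h, and 65.8% in paclitaxel and 67.7% in DMSO at 24 h. These cells were also deeper than cells called G1. Their median depths at 72 h were 92192 against 54589 UMIs in paclitaxel and 72878 against 47954 UMIs in DMSO. At 24 h they were 87339 against 49321 UMIs in paclitaxel and 71193 against 48299 UMIs in DMSO. The share of cells called G2/M is therefore not the background for these shares of UMIs. That background is the share of the UMIs of all genes in these cells. At 72 h in paclitaxel, cells called G2/M held 7495020 such UMIs, cells called S 5861478 and cells called G1 20851444. In DMSO at 72 h the same calls held 14212997, 13541066 and 21211846. The numbers for 24 h are not given here. The share called G2/M ranked the libraries as the mitotic sum did, and in sums over a library fewer cells in division and less RNA per such cell cannot be told apart.

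The mitotic sum was compared between libraries within each call. In cells called G2/M the mitotic sum was 497 CPM in paclitaxel and 498 CPM in DMSO at 72 h, an unadjusted log2 ratio of -0.003 (-0.06 to 0.05), and 548 CPM in paclitaxel and 569 CPM in DMSO at 24 h, a ratio of -0.05 (-0.09 to -0.02). In cells called G1 it was 107 CPM in paclitaxel and 88.9 CPM in DMSO at 72 h, a log2 ratio of 0.27 (0.18 to 0.36), and 101 CPM in paclitaxel and 110 CPM in DMSO at 24 h, a ratio of -0.13 (-0.25 to -0.01). In cells called S the log2 ratio was 0.18 (0.09 to 0.27) at 72 h and -0.31 (-0.36 to -0.26) at 24 h. The unadjusted ratio at 72 h was thus nearest 0 in G2/M cells, and in S and G1 cells it was above 0 while over all cells it was below. Members of the sum spread to both sides of 0 in unadjusted ratios in G2/M cells at 72 h. KIF14 had 19.9 CPM in paclitaxel and 35.5 CPM in DMSO there, a log2 ratio of -0.84 (-1.11 to -0.57), KIF4A was at -0.40 (-0.60 to -0.21) and KIF11 at -0.34 (-0.57 to -0.12). KIF2C had 52.8 CPM in paclitaxel and 38.4 CPM in DMSO, a log2 ratio of 0.46 (0.27 to 0.65), KIF23 was at 0.25 (0.07 to 0.43) and KIF22 at 0.20 (0.05 to 0.34). Of the 12 genes the interval lay above 0 for 4 and below 0 for 4. Of the 16 transport members in the same cells it also lay above 0 for 4 and below 0 for 4. The spread is thus not shown to be particular to the mitotic members, and the share of all genes was not counted. These values rest on 79 cells in paclitaxel and 180 in DMSO, with median depths of 92192 UMIs in paclitaxel and 72878 UMIs in DMSO, and a median of all genes was not subtracted. Over all cells that median was 0.28. It was above the values of KIF23 and KIF22 here and above the ratios of the mitotic sum in each call at 72 h. The directions of these 2 genes and of the sum in S and G1 cells therefore depend on the scaling. Which call lay nearest 0 depends on it as well.

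**Figure D3:**
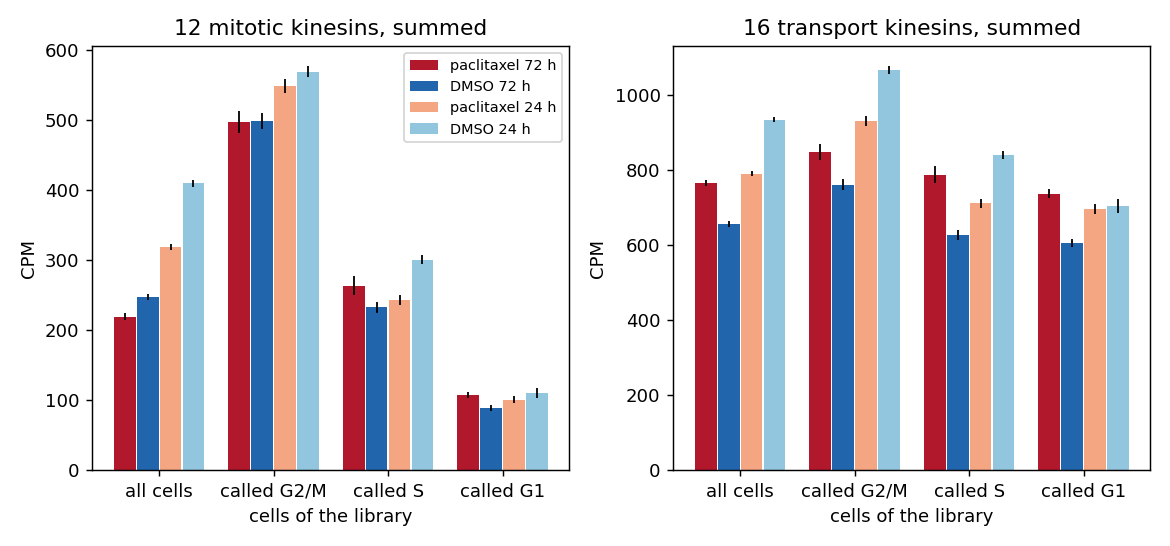
Summed CPM of the 12 mitotic (left) and 16 transport (right) kinesins over all cells and over cells called G2/M, S and G1 in each of the 4 libraries, with 95% intervals for counting error. The mitotic sum over all cells runs from 219 CPM in paclitaxel at 72 h to 409 CPM in DMSO at 24 h, and in cells called G2/M it lies between 497 and 569 CPM.

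All 12 mitotic members had higher CPM in cells called G2/M than in cells called G1 in all 4 libraries, with log2 ratios from 0.63 to 4.27, and the mitotic sum was higher by 2.21 to 2.48 on the log2 scale. Of the 16 transport members only KIF5B (0.42 to 0.84) and KIF3C (0.33 to 0.81) had intervals above 0 in all 4, and the transport sum was higher by 0.20 to 0.60. How many of all genes had such intervals was not counted. Cells called G2/M were deeper than cells called G1, and no median of all genes was subtracted from these ratios. The mitotic members differed in how late in the cycle they were high. KIF20A had log2 ratios of G2/M over S from 2.26 to 2.95 over the 4 libraries, and by their lowest value KIF2C (1.404 to 1.98) and KIF18A (1.199 to 2.08) came next. KIF15 was high already in S, with G2/M over S from 0.31 to 0.88 and S over G1 from 2.25 to 3.54. KIF22 had the lowest ratios of G2/M over G1 among the 12, from 0.63 to 0.68, and it is also the mitotic member whose CPM spread least over the libraries. Among the members outside the mitotic list, KIF24 had G2/M over G1 from 1.90 to 2.98 and S over G1 from 1.69 to 3.17, and KIF26A had G2/M over G1 from 0.58 to 1.01. KIFC2 went the other way against S, with G2/M over S from -0.78 to -0.23. KIF26B and KIFC3 kept the sign of their drug ratio at 72 h in every call: KIF26B stood between -1.14 and -0.89 and KIFC3 between 0.79 and 1.28.

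**Figure D4:**
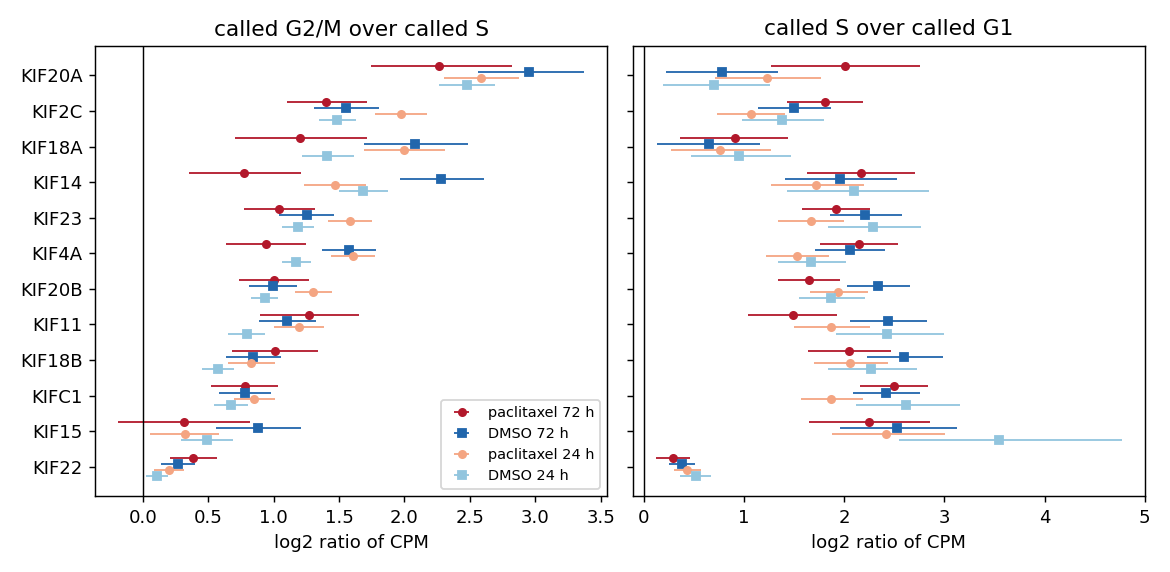
Log2 ratio of CPM between cells called G2/M and S (left) and between cells called S and G1 (right) for the 12 mitotic kinesins in each library, with 95% intervals for counting error. In the left plot KIF20A lies between 2.26 and 2.95, and KIF22 lies nearest 0 in both plots.

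The share of cells with a mitotic kinesin was highest in DMSO at 24 h. At least 1 of the 12 mitotic members was detected in 94.6% (92.3 to 96.4) of cells in paclitaxel and 96.2% (94.6 to 97.4) in DMSO at 72 h, and in 96.6% (95.1 to 97.8) in paclitaxel and 99.7% (99.2 to 99.9) in DMSO at 24 h. The intervals of the first 3 libraries overlapped. After thinning to 20000 UMIs per cell the shares were 85.7% in paclitaxel and 86.2% in DMSO at 72 h, and 90.9% in paclitaxel and 97.7% in DMSO at 24 h. Cells under that depth, 39 in paclitaxel and 17 in DMSO at 72 h and 26 in paclitaxel and 21 in DMSO at 24 h, were left out of thinned values. The number of different mitotic members in a cell separated the libraries more clearly. The median thinned cell held 2 of the 12 in paclitaxel and 2 in DMSO at 72 h, and 3 in paclitaxel and 5 in DMSO at 24 h. At least 6 of the 12 were found in 9.77% (7.27 to 12.8) of thinned cells in paclitaxel and 17.2% (14.6 to 20.1) in DMSO at 72 h, and in 23.5% (20.5 to 26.7) in paclitaxel and 41.2% (38.3 to 44.2) in DMSO at 24 h.

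**Figure D5:**
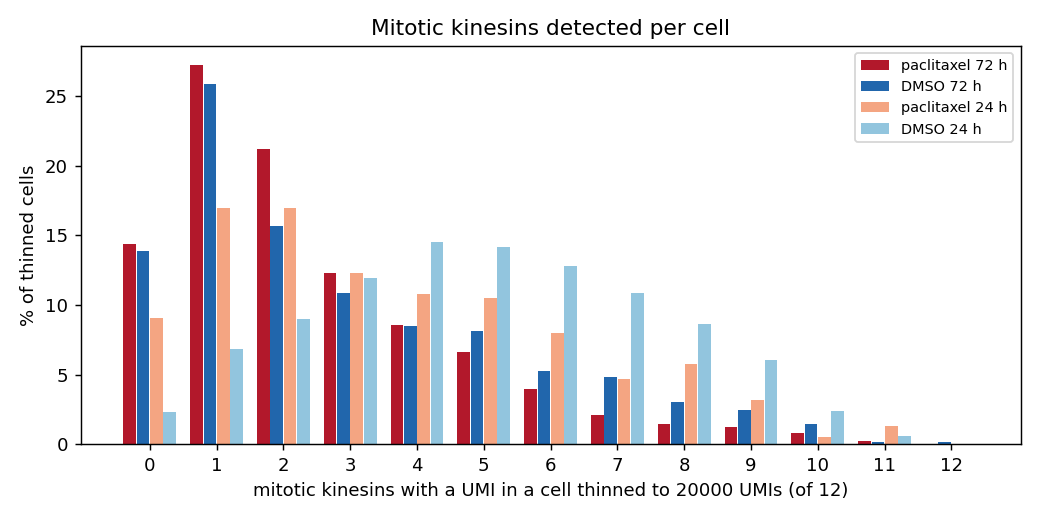
Percent of cells, each thinned to 20000 UMIs, by how many of the 12 mitotic kinesins had a UMI, in each of the 4 libraries. The median cell holds 2 genes in either library at 72 h, and at 24 h it holds 3 in paclitaxel and 5 in DMSO.

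KIF11 was found in the fewest cells in paclitaxel at 72 h. KIF11 had a UMI in 33.9% of cells in paclitaxel and 45.2% in DMSO at 72 h, and in 52.7% in paclitaxel and 68.9% in DMSO at 24 h; thinned, 14.6% in paclitaxel and 22.6% in DMSO at 72 h, and 27.3% in paclitaxel and 38.4% in DMSO at 24 h. KIF22 was found, thinned, in 64.4% (59.99 to 68.7) in paclitaxel and 65.7% (62.2 to 69.0) in DMSO at 72 h, and in 66.5% (63.0 to 69.9) in paclitaxel and 72.2% (69.4 to 74.9) in DMSO at 24 h, with the first 3 within counting error of each other. KIFC3 had thinned shares of 38.9% in paclitaxel and 23.2% in DMSO at 72 h, and of 31.2% in paclitaxel and 39.4% in DMSO at 24 h, with DMSO at 72 h lowest as in its CPM. KIF5B was in 95.2% (93.0 to 96.9) of cells in paclitaxel and 99.5% (98.7 to 99.9) in DMSO at 72 h, and in 99.6% (98.9 to 99.9) in paclitaxel and 100% (99.7 to 100) in DMSO at 24 h. At least 1 transport member was detected in 99.8% of cells or more in each library. The libraries hold 1 cell line and no cell type that lacks these genes, so the part of free RNA in these shares was not tested.

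The partners of the mitotic kinesins on a list of 16 spindle genes mostly had relative ratios below 0, as the mitotic members had. At 72 h, 0 of 14 measured partners were higher in paclitaxel, against 25.2% of all genes, and 2 were lower, against 2.13%. All 14 had relative log2 ratios below 0, with a median of -0.50, although 2 had unadjusted ratios above 0. By the relative rule 0 were higher, against 11.1%, and 5 lower, against 7.93%. CIT, the citron kinase that works with KIF14, had 10.6 CPM in paclitaxel and 18.3 CPM in DMSO, a relative log2 ratio of -1.07, and GTSE1, a microtubule protein that restrains KIF2C, had 31.2 CPM in paclitaxel and 48.0 CPM in DMSO, at -0.90. CENPE, a kinesin of the kinetochore that does not carry a KIF symbol, had 13.03 CPM in paclitaxel and 18.9 CPM in DMSO, at -0.81. At 24 h, 0 of 15 were higher, against 4%, and 2, again GTSE1 and CIT, were lower, against 3.62%. Their relative log2 ratios were -0.55 for GTSE1 and -0.53 for CIT, with a list median of -0.22, and by the relative rule 0 were higher, against 6.3%, and 0 lower, against 1.26%. At 72 h against 24 h, 14 of 15 were lower in DMSO, against 25.1% of genes, and 10 of 15 in paclitaxel, against 2.65%. By the relative rule 8 of 15 were lower in DMSO, against 9.89%, and 13 of 15 in paclitaxel, against 4.93%. In DMSO 1 of the 15 had a relative ratio above 0. Among them was AURKA, a mitotic kinase, with relative log2 ratios of -1.07 in DMSO and -1.29 in paclitaxel.

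Light chains, adaptors and other partners of the transport kinesins were also listed. At 72 h, of 16 measured transport partners 3 were higher and 0 lower in paclitaxel than in DMSO, against the 25.2% and 2.13% of all genes, with a median relative log2 ratio of 0.10. Among them were KLC2 and KLC3, light chains of kinesin-1. KLC2 had 29.9 CPM in paclitaxel and 16.8 CPM in DMSO, and KLC3 had 75.2 CPM in paclitaxel and 43.4 CPM in DMSO. Relative to all genes KLC2 stood at 0.55 and KLC3 at 0.51, each under 1.5-fold, and by the relative rule 0 of the 16 were higher, against 11.1%, and 1 was lower, against 7.93%. Dynein walks towards the minus end of microtubules with its activator dynactin, and 7 of 19 measured subunits and regulators were higher at 72 h and 0 lower, against the same 25.2% and 2.13%. Relative to the median 3 were higher, against 11.1%: the light chains DYNLT3 at 0.77, DYNLRB1 at 0.71 and the light intermediate chain DYNC1LI1 at 0.64 in relative log2 ratios. At 24 h 0 of 14 transport partners and 0 of 19 dynein genes were higher or lower by the unadjusted rule, against 4% of genes higher and 3.62% lower. By the relative rule 1 of each list was higher, against 6.3%, and 0 were lower, against 1.26%; they were TRAK1 at 0.60 and the dynactin subunit DCTN2 at 0.66.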

How the data were processed

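The values analysed are UMI counts per gene and cell barcode, as deposited, with no normalization by the authors stated; Cell Ranger 2.0 and GRCh38 are named per the submitters' processing notes, while the selection of cells and any use of strand are not stated there. Every gene in a deposited table had a UMI in at least 1% of its cells, so a gene absent from a table was set to 5 (paclitaxel 72 h), 7 (DMSO 72 h and paclitaxel 24 h) or 11 (DMSO 24 h) UMIs, an approximate upper bound, where a ratio needed it.

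Barcodes with at least 500 genes and under 20% mitochondrially encoded UMIs were kept (3180 of 3194). No doublet caller was run; leaving out cells above 100000 UMIs is one of the alternatives. UMIs were summed per library and scaled to CPM. CPM carry exact Poisson intervals, ratios exact intervals for 2 Poisson counts and shares Clopper-Pearson intervals, all at 95%. Of these, only the ratio intervals and the calls made from them were tested on simulated data. The simulated counts were Poisson, which is what the ratio intervals assume. Ratios minus the median of all genes, and DMSO at 24 h as the control, were added after the data were seen. Named genes are members with at least 10 CPM in 1 library, and up to 4 members of each partner list with the largest ratios; others are named for their values. The values of 1 partner gene are not reported here. Members and lists were chosen with earlier results of these data known. Phases were called with scanpy 1.11.5. Coordinates come from GENCODE 29 and promoters from RefSeq on GRCh38.p14. TMM factors came from edgeR 4.0.16; numpy 2.4.6, scipy 1.17.1 and pandas 2.3.3 did the rest. Exons of 18 members overlap a gene on the other strand and those of 2, KIF1B and KIF2A, one on the same strand, so their counts are uncertain.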

Additional observations from a re-analysis of the deposited data

Results flagged for a closer look

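For 3 members the ratio of paclitaxel over DMSO went opposite ways at the 2 times, with counting intervals that left out 0 both before and after the median of all genes was taken off. Only the 39 members listed in every table were examined, and the share of all genes that meet this rule was not counted. The median log2 ratio of all measured genes itself was 0.28 at 72 h and -0.14 at 24 h. The log2 ratio at 72 h minus that at 24 h was -2.37 (-2.77 to -1.97) for KIF26B, which was below 0 at 72 h and above 0 at 24 h. It was 0.96 (0.75 to 1.17) for KIF3C and 0.73 (0.69 to 0.77) for KIF5B, which were above 0 at 72 h and below 0 at 24 h. With 1 library per group the difference between the times was not tested.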

How the results depend on the processing

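With 1 library per group no replicate could be left out. No paired analysis was possible because each group was 1 library and no result comes from a test. Depth limits the low members: at under 10 CPM in both libraries of a pair their ratios were not counted. Of 92 values recomputed under other settings 48 lay within their counting interval or, for counts, within 1.5 times the count, 41 moved and 3 changed sign; the cause was not tested. At 24 h the count of 1 kinesin past 1.5-fold was 4 with the mean of per-cell CPM, 7 without cells above 100000 UMIs, 3 with no minimum and 0 at a minimum of 50 CPM. With TMM factors, with totals without ribosomal protein and mitochondrially encoded genes, and with ratios minus the median it was also 1, but that gene was KIFC2, higher, and not KIF4A, lower, so these 3 of the 48 did not keep their direction. The mitotic sum at 24 h (-0.36) was -0.27, -0.26, -0.51 and -0.58 with TMM factors, those totals, per-cell means and without RNA-rich cells (above 100000 UMIs), the transport sum (-0.24) was -0.15, -0.14, -0.27 and -0.30, and mitotic over transport (-0.12) was -0.24 and -0.28 in the last 2 settings. At 72 h the count of 5 (3 higher, 2 lower) was 8 (1 higher, 7 lower) with TMM factors, 9 (1 higher, 8 lower) with those totals, 12 (8 higher, 4 lower) with no minimum, 0 at 50 CPM, and 2 alternatives chosen after seeing the data gave 8 (ratios minus the median of all genes) and 11 (DMSO at 24 h as the control). The mitotic sum at 72 h (-0.18) was -0.46, -0.47, -0.30 and -0.90 with TMM factors, those totals, no RNA-rich cells and DMSO at 24 h as the control. The transport sum (0.22) turned to -0.058, -0.068 and -0.288 with TMM factors, those totals and DMSO at 24 h, and was 0.20 with per-cell means. Mitotic over transport (-0.40) was -0.55 without RNA-rich cells, -0.24 without the most abundant member of each group and -0.62 against DMSO at 24 h. For DMSO at 72 h over DMSO at 24 h the count of 13 was 8 with those totals, 1 at 50 CPM and 8 minus the median, and mitotic over transport (-0.22) was -0.26 with per-cell means and -0.58 without the most abundant members. For paclitaxel at 72 h over paclitaxel at 24 h the count of 7 was 15 with no minimum and 0 at 50 CPM, and mitotic over transport (-0.49) was -0.43 and -0.69. Thinning set the share of cells with a mitotic kinesin to 85.7% in paclitaxel and 86.2% in DMSO at 72 h, and to 90.9% in paclitaxel and 97.7% in DMSO at 24 h.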
